A study of Homo sapiens with 36 samples.

Results

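The mRNA levels of 10 keratin genes were followed through RNA-seq libraries of human breast cell lines, to ask how the keratins that mark basal, activated and simple epithelial cells stand when v-Src is switched on and when YAP, TAZ, STAT3 or JUNB is knocked down. The genes were KRT5, KRT14, KRT6A, KRT6B, KRT16, KRT17, KRT7, KRT8, KRT18 and KRT19, chosen by name among 60725 Ensembl genes, and all 10 were found in every library. The series held 36 libraries, 2 in each of 18 groups. ER-Src cells are MCF-10A mammary epithelial cells, themselves not transformed, with a v-Src oncoprotein whose activity depends on a ligand-binding part of the estrogen receptor joined to it. Tamoxifen (TAM) turns the fusion protein on, and ethanol (ETH) is the vehicle. The ER-Src cells were grown in medium with charcoal-stripped serum, EGF, hydrocortisone, cholera toxin and insulin, which all their groups share. The labels list AZD0530, an inhibitor of Src family kinases, next to tamoxifen among the agents used for induction. They do not say which libraries received it or for how long TAM was given before RNA was taken. The methods of the study state that siRNA-transfected cells received AZD0530 together with tamoxifen, and give no single duration for the RNA libraries. In TAM against ETH, the effects of v-Src and of AZD0530 therefore cannot be told apart. The 10 ER-Src groups were ETH or TAM, each with control siRNA (Ctrli) or with siRNA against YAP (YAPi), TAZ (TAZi), STAT3 (STAT3i) or JUNB (JUNBi), bought as pools of oligos. MDA-MB-231, a triple-negative breast cancer line of mesenchymal appearance, made up 8 groups without TAM: set 1 with Ctrli, YAPi, TAZi, YAPi_TAZi (both targets) and TEADi (the TEAD family, the DNA-binding partners of YAP and TAZ), and set 2 with its own Ctrli, JUNBi and STAT3i. Each line is 1 cell culture line, and the labels do not say whether the paired libraries came from separate cultures, so the p-values measure only the spread between these libraries.

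Keratins are the intermediate filament proteins of epithelia. A filament is built from heterodimers of an acidic type I keratin and a basic type II keratin, so the genes are usually expressed in pairs, and the partner sets change with cell state. KRT5 (type II) with KRT14 (type I) is the pair of the basal layer of stratified epithelia and of basal or myoepithelial cells in the mammary gland. KRT6A and KRT6B (type II) with KRT16 and KRT17 (type I) are induced in wounded, inflamed or hyperproliferative epidermis, and KRT17 is also widely used as a basal breast marker. KRT8 (type II) with KRT18 (type I) forms the filaments of simple epithelia and luminal breast cells, joined there by KRT7 (type II) and KRT19 (type I). Below, KRT5, KRT14 and KRT17 are called the basal members, KRT6A, KRT6B and KRT16 the activation members, and KRT7, KRT8, KRT18 and KRT19 the simple members.

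Some keratins are so alike that reads of one can be counted for another. The annotation (GRCh38) places the type II genes and KRT18 on chromosome 12 and the other type I genes on chromosome 17. KRT6A lies at chr12:52487176-52493257, KRT6B at chr12:52446651-52452146, and both run on the minus strand beside KRT6C. Over 1692 coding bases KRT6A and KRT6B differed at 42 and were 97.5% identical. The stretch with the most differences between them, coding bases 664 to 723 in exon 2, is shown because only reads over such places separate the genes. Capitals mark the bases at which the sequences are not all the same. The windows are the minus strand of chr12:52491554-52491613 for KRT6A, chr12:52450438-52450497 for KRT6B and chr12:52472098-52472157 for KRT6C.
KRT6A: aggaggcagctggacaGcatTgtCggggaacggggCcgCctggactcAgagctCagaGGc
KRT6B: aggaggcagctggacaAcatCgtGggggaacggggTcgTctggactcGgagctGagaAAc
KRT6C: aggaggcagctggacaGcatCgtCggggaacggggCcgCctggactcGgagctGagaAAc
The first 60 coding bases, by contrast, were the same in KRT6A, KRT6B and KRT6C, shown as an example of a stretch whose reads cannot be assigned (KRT6A, minus strand of chr12:52493129-52493188).
KRT6A: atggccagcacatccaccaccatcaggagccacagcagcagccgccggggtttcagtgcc
Of all 50-base windows of its transcript, KRT6A shared 39.2% with another gene, KRT6B 46.6%, KRT8 39.2% and KRT18 35.3% (the last 2 chiefly with their own pseudogenes), KRT14 24.2%, KRT16 21.8% and KRT17 17.4%. KRT5 shared 4.5%, KRT19 1.8% and KRT7 1.1%, so their counts rest almost wholly on reads of their own. Of 75-base windows, KRT6A shared 26.2%, KRT6B 34.6%, KRT8 18.8% and KRT18 6.5%, so longer reads are easier to assign. RSEM, with which the authors counted, divides a shared read among the genes by probability. The spans of KRT8 (minus strand) and KRT18 (plus strand) also overlap, and whether strand was used in counting is not given in the sources used here, so reads in the overlap cannot be assigned with certainty.

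Total expected counts, the estimated reads per library, ran from 6419720 to 19161700 in ER-Src, were 13456784 and 13534560 in the set 1 controls, 1411304 to 2784605 in the set 1 knockdowns, and 7290499 to 18076158 in set 2. Libraries were of different types. Protein-coding genes held 20.2% to 28.9% of all TPM (the length-scaled RSEM level, with a fixed sum per library) in ER-Src, 19.96% to 23.17% in the replicate 1 and 36.87% to 37.88% in the replicate 2 libraries of the set 1 knockdowns, and about 94% in the set 1 controls and set 2. The set 1 controls therefore differ from the set 1 knockdowns in library type as well as in siRNA, and those effects cannot be told apart. Keratin levels compared between cell lines are given here as TPM rescaled to protein-coding genes only. The marker sums below are in deposited TPM, whose scale differs with library type, so they cannot be set against each other between lines. YAP1, WWTR1 (the gene of TAZ), STAT3 and JUNB were lower in the ER-Src libraries in which they were targeted, by 1.86 to 2.66 on the log2 scale except for JUNB under ETH (log2 fold change −1.16, SE 0.40, DESeq2 adjusted p = 0.0643). Of 5 epithelial markers (EPCAM, CDH1, TP63, GRHL2, ESRP1) the summed level was 25.57 to 64.48 TPM in ER-Src and 3.15 to 18.04 in MDA-MB-231, and GRHL2 stayed at or below 0.06 TPM in ER-Src. Luminal markers (ESR1, PGR, GATA3, FOXA1) summed to 89.74 to 206.9 TPM in ER-Src, but this was nearly all ESR1, whose hormone-binding domain is part of the transgene, with PGR at 0.01 TPM at most, GATA3 at 0.72 and FOXA1 at 1.83. Mesenchymal markers (VIM, CDH2, ZEB1, ZEB2, FN1) summed to 236.6 to 383.9 TPM in ER-Src and 394.6 to 2884 in MDA-MB-231. On the protein-coding scale VIM overlapped between ER-Src (744.7 to 1441) and set 2 (868.4 to 1698). There FN1 was higher in ER-Src (81.11 to 377.2) than in set 2 (15.33 to 48.61), as were CDH2, ZEB1 and ZEB2. Set 1 of the same line differed from set 2. In it VIM reached 2743 and ZEB1 62.61 on this scale, above every ER-Src and set 2 library. The highest FN1, CDH2 and ZEB2 levels of the series were in ER-Src. Leukocyte markers summed to at most 9.6 TPM, all but a trace of it CD14, and endothelial markers to at most 1.86. In bulk samples, fewer cells of a kind and less RNA per cell cannot be told apart.

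In ER-Src cells under ETH with Ctrli, the basal type II keratin KRT5 was the most abundant of the 10, at 1772 and 1831 TPM in the pair of libraries. KRT7 followed at 641.2 and 565.1 TPM, KRT17 at 395.0 and 363.4, and KRT6A at 271.3 and 239.3. KRT18 (163.4 and 138.9 TPM) and KRT14 (130.6 and 144.2 TPM) overlapped, and no other neighbours in this order did. KRT8 stood at 45.9 and 43.67 TPM, KRT16 at 6.47 and 7.68, KRT6B at 2.81 and 2.54 and KRT19 at 0.34 and 0.58. The 10 genes together made up 1.24% and 1.40% of protein-coding TPM. The partners were far from equal in mRNA. KRT5 exceeded KRT14 by 13.6 and 12.7 times in TPM, KRT6A exceeded KRT16 by 41.9 and 31.2 times, and KRT8 was at 0.281 and 0.315 of KRT18. Summed type II TPM was 3.93 and 4.10 times summed type I TPM.

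Under TAM with Ctrli the order was KRT5, KRT17, KRT6A, KRT7, KRT14, KRT18, KRT8, KRT16, KRT6B, KRT19, with no overlap between neighbours. The activation members took 22.1% and 21.2% of keratin TPM, against 8.18% and 7.48% under ETH. The simple members took 13.1% and 14.1%, against 24.8% and 22.4%. The basal members held 64.7% in both TAM libraries and 67.0% and 70.1% under ETH. This share counts KRT17, which is also induced with KRT6A and KRT16, so it depends on where KRT17 is placed. KRT17 went from 395.0 and 363.4 TPM under ETH to 1142 and 1130 under TAM, while KRT5 went from 1772 and 1831 to 1336 and 1198. The ratio of type II to type I TPM was 1.72 and 1.61 under TAM, less than the ETH values above. KRT17 came closer to KRT5 but stayed below it (1142 and 1130 TPM against 1336 and 1198). Across all 20 ER-Src libraries the basal share ran from 59.8% to 77.9%, the activation share from 7.48% to 29.4% and the simple share from 9.19% to 31.3%. These shares are levels in deposited TPM and carry no test.

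**Figure D1:**
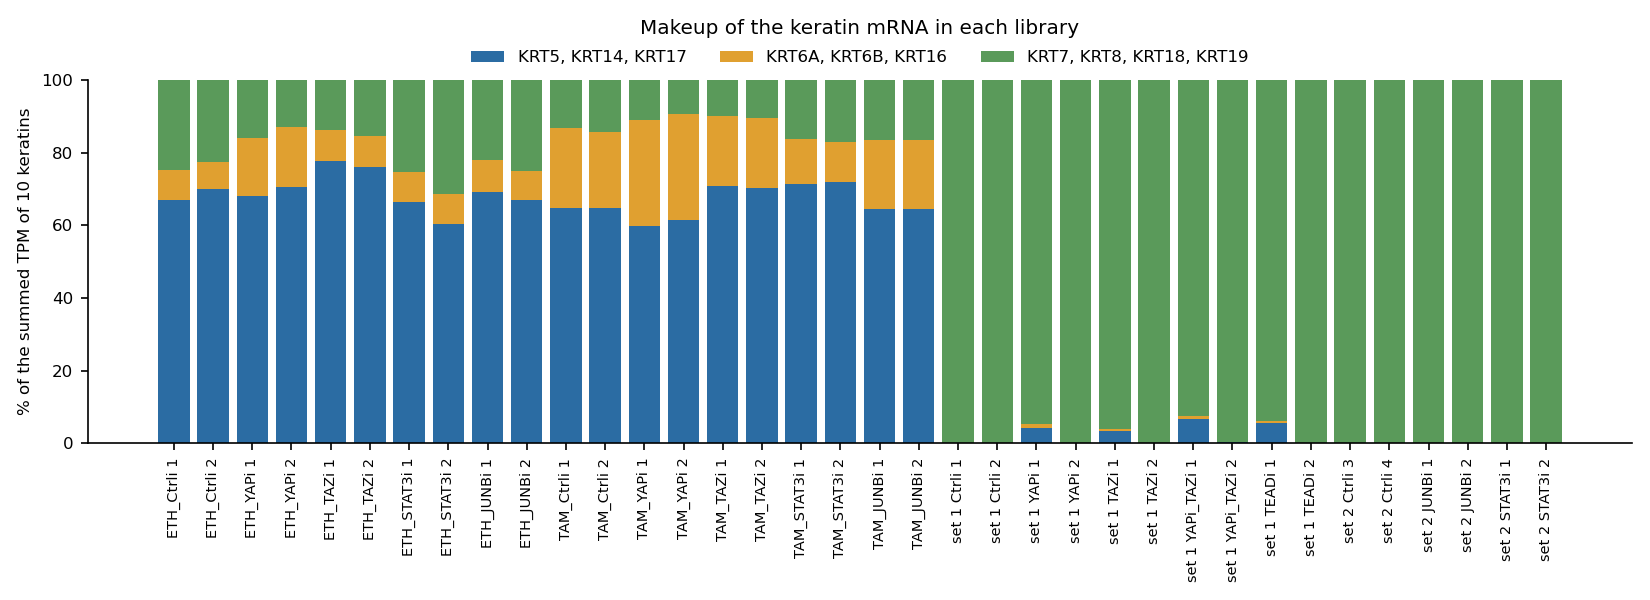
Each bar is 1 library, and its height is divided by the share (percent, axis from 0) of the summed TPM of the 10 keratins held by the basal (KRT5, KRT14, KRT17), activation (KRT6A, KRT6B, KRT16) and simple (KRT7, KRT8, KRT18, KRT19) members. Basal members hold 59.8% to 77.9% in every ER-Src library, the activation share is largest in the TAM YAPi libraries (29.4% and 29.3%), and simple members hold at least 92.46% in every MDA-MB-231 library.

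What changed when v-Src was switched on was asked by setting TAM against ETH in Ctrli cells. KRT6A, KRT6B, KRT16 and KRT17 rose by 3.88 to 7.69 times and KRT14 by 1.86 times, KRT7 fell, and KRT5, KRT8, KRT18 and KRT19 did not pass the test. Of the 10 keratins, 5 were called higher and 1 lower by DESeq2 at an adjusted p under 0.01, where 6.36% of all 15373 genes tested were called. The median log2 fold change of the 10 was 1.09, and that of all genes tested −0.01. Counts below are scaled by DESeq2 size factors over the 20 ER-Src libraries, given as the lower and the higher library of a pair, and fold changes are those of the fit for the 2 groups concerned. KRT6A, made by epidermis at wound edges, had 13024 and 13777 normalized counts under ETH and 51234 and 54989 under TAM (a log2 fold change of 2.00, SE 0.09, adjusted p = 1.34e-119). Its close copy KRT6B went from 161.8 and 172.9 to 1230 and 1318 (2.94, SE 0.18, adjusted p = 2.31e-60). KRT6B was 1.24% and 1.26% of the KRT6A count under ETH and 2.4% in both TAM libraries, and how shared reads were divided was not tested. KRT16, a type I partner of KRT6, went from 242.2 and 336.6 to 1066 and 1165 (1.96, SE 0.19, adjusted p = 6.99e-22). KRT17 went from 11739 and 12733 to 44613 and 49548 (1.96, SE 0.09, adjusted p = 2.66e-101). In each of these 4 genes the TAM libraries lay far above the ETH libraries, and the calls were kept in every alternative tried.

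The pair of the basal layer did not move together. KRT14 had 5002 and 6441 normalized counts under ETH and 10243 and 10878 under TAM (a log2 fold change of 0.90, SE 0.12, adjusted p = 1.05e-11). KRT5, its partner, had 56870 and 62607 under ETH and 53132 and 54820 under TAM (−0.13, SE 0.09, adjusted p = 0.507, 95% interval −0.30 to 0.03). The ratio of KRT5 to KRT14 in TPM was 6.04 and 5.52 under TAM, below the ETH values above. Among the simple members KRT7 went from 19661 and 21996 to 14001 and 16348 normalized counts (−0.45, SE 0.10, adjusted p = 3.64e-04). KRT8 (0.05, 95% interval −0.21 to 0.30) and KRT18 (0.05, 95% interval −0.12 to 0.23) overlapped or nearly overlapped between treatments and were not called. KRT19 had 5.09 and 10.4 normalized counts under ETH and 18.4 and 18.8 under TAM, too few for a call (adjusted p = 0.697). The KRT14 call was lost without TAM Ctrli replicate 1 (adjusted p = 0.0727) or replicate 2 (0.0915), and the KRT7 call without TAM Ctrli replicate 1 (0.133) or ETH Ctrli replicate 2 (0.149). Of the 14 cell type markers tested beside these changes FN1 was called (0.69, SE 0.10, adjusted p = 1.29e-09), and its part in the keratin results was not tested. In TPM, by contrast with the normalized counts, KRT5 was lower in both TAM libraries (1336 and 1198) than in both ETH libraries.

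**Figure D2:**
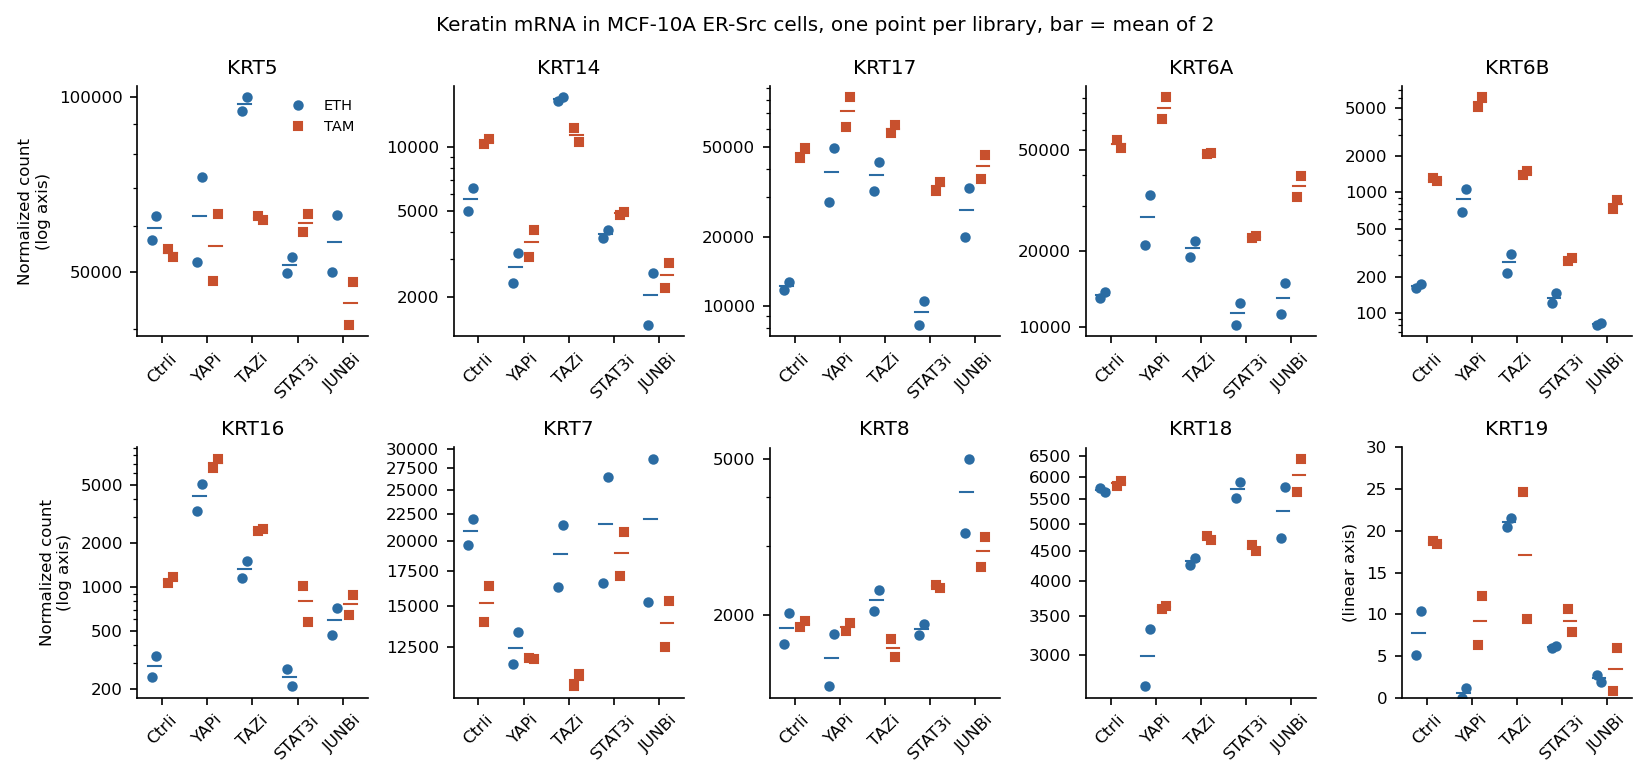
Normalized counts of each keratin (log axes, except KRT19 on a linear axis from 0) in the 10 ER-Src groups, 1 point per library and a bar at the mean of each pair, ETH and TAM side by side for each siRNA. KRT6A, KRT6B and KRT17 are higher under TAM in the Ctrli pair, and KRT16 is highest in the YAPi libraries. KRT14 has its lowest means in the JUNBi and YAPi groups, with an overlap between TAM YAPi and ETH STAT3i.

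YAP knockdown raised KRT16, KRT6B and KRT17 and lowered KRT14 and KRT18 under both TAM and ETH. Under TAM, 4 keratins were called higher and 2 lower in YAPi against Ctrli, where 10.5% of all genes tested were called. Under ETH, 3 were called higher and 3 lower, where 10.9% were called. The median log2 fold change of the keratins tested was 0.02 under TAM and 0.06 under ETH, with 0.01 and 0.00 over all genes tested. FN1 rose in both (0.95 and 1.59), as did CDH1 (1.58 and 0.99), and EPCAM fell in both (−1.07 and −1.31). Under ETH, TP63 (0.68), ESR1 (−0.38) and CD14 (−0.92) were called as well. The part of these markers in the keratin results was not tested. KRT16 showed the largest rise. It had 6578 and 7556 normalized counts in TAM YAPi against 1066 and 1165 in TAM Ctrli (log2 fold change 2.68, SE 0.13, adjusted p = 4.81e-98), and 3346 and 5076 in ETH YAPi against 242.2 and 336.6 in ETH Ctrli (3.85, SE 0.37, adjusted p = 3.76e-23). ETH YAPi cells thus held more KRT16 mRNA than TAM cells with the control siRNA, and the libraries of those groups did not overlap. KRT6B reached 5032 and 6093 in TAM YAPi, against 1230 and 1318 in TAM Ctrli (2.13, SE 0.14, adjusted p = 1.7e-53), and 692.6 and 1070 in ETH YAPi (2.38, SE 0.22, adjusted p = 5.97e-24). It was then 7.6% and 7.54% of the KRT6A count under TAM, the largest share of any ER-Src group. KRT6A itself had 66173 and 80784 in TAM YAPi (0.48, SE 0.12, adjusted p = 9.21e-04). Under ETH it had 21105 and 33188, above both Ctrli libraries, but the difference missed the threshold (1.01, SE 0.32, adjusted p = 0.013), while edgeR called it (adjusted p = 0.00921). Under TAM edgeR called 4 keratins and not KRT6A (adjusted p = 0.0325) or KRT17 (0.0278). The third close copy, KRT6C, which is not among the 10, also rose in YAPi, by 2.68 on the log2 scale under TAM (adjusted p = 1.06e-29) and by 4.16 under ETH (adjusted p = 1.33e-20).

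Among the basal members, KRT14 fell to 3069 and 4112 normalized counts in TAM YAPi (log2 fold change −1.54, SE 0.14, adjusted p = 1.1e-24) and 2335 and 3196 in ETH YAPi (−1.06, SE 0.15, adjusted p = 3.72e-10), below both control libraries in each treatment. KRT5 gave 0.05 (95% interval −0.20 to 0.31) under TAM and 0.06 (−0.21 to 0.32) under ETH. The ratio of KRT5 to KRT14 in TPM was 14.8 and 12.6 under TAM and 21.3 and 21.6 under ETH. KRT17 went the other way from KRT14, to 61194 and 82251 in TAM YAPi (0.62, SE 0.14, adjusted p = 2.03e-04) and 28564 and 49159 in ETH YAPi (1.66, SE 0.38, adjusted p = 2.5e-04). Of the simple members, KRT18 fell in both treatments, to 3588 and 3637 under TAM (−0.69, SE 0.10, adjusted p = 8.11e-10) and 2657 and 3327 under ETH (−0.94, SE 0.12, adjusted p = 2.4e-12). Its partner KRT8 had log2 fold changes of −0.01 (95% interval −0.25 to 0.22) and −0.27 (−0.58 to 0.04). KRT7 fell under ETH, to 11617 and 13351 (−0.75, SE 0.11, adjusted p = 3.64e-10), and gave −0.34 under TAM (adjusted p = 0.0145). Under TAM the calls of KRT6A and KRT17 were lost without YAPi replicate 2 (adjusted p = 0.143 and 0.0495), without Ctrli replicate 1 (0.026 and 0.0497) and, for KRT6A, without Ctrli replicate 2 (0.113). Under ETH the KRT17 call was lost without Ctrli replicate 1 (0.166) or replicate 2 (0.102), and KRT6A was called without YAPi replicate 1 (1.46e-27) or replicate 2 (5.05e-07).

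TAZ knockdown raised KRT16 and KRT17 in both treatments, and KRT14, KRT5 and KRT6A under ETH. Under ETH, 5 keratins were called higher and 1 lower in TAZi against Ctrli, where 4.86% of all genes tested were called, and under TAM 2 were called higher and 1 lower, where 3.53% were called. The median over the 10 was 0.67 under ETH and −0.01 under TAM, on the log2 scale, and 0.00 over all genes tested in each. CDH1 (0.71) and FN1 (0.54) were called beside them under ETH, and their part was not tested. KRT14 reached its highest level of all ER-Src groups in ETH TAZi, with 16378 and 16947 normalized counts against 5002 and 6441 in Ctrli (log2 fold change 1.54, SE 0.12, adjusted p = 2.34e-33). Under TAM it had 10489 and 12232 against 10243 and 10878, overlapping (0.11, 95% interval −0.09 to 0.31). KRT5 rose under ETH, to 94753 and 100046 (0.70, SE 0.09, adjusted p = 7.88e-12), its only call among the 8 knockdown comparisons of ER-Src. The basal share of keratin TPM, 77.9% and 76.0%, was the highest of the 10 groups. KRT17 rose to 31878 and 42952 under ETH (1.60, SE 0.13, adjusted p = 3.87e-33) and to 57559 and 62037 under TAM (0.35, SE 0.09, adjusted p = 0.003). KRT16 rose in both, to 1160 and 1506 under ETH (2.20, SE 0.20, adjusted p = 1.35e-25) and to 2435 and 2493 under TAM (1.15, SE 0.12, adjusted p = 6.54e-20). KRT6A rose under ETH, to 18968 and 22013 (0.60, SE 0.10, adjusted p = 2.58e-07), and gave −0.13 (95% interval −0.29 to 0.03) under TAM. KRT6B gave 0.64 (adjusted p = 0.163) and 0.19 (0.542).

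Of the simple members in TAZi, KRT18 was called lower under ETH and KRT7 under TAM. KRT18 had 4259 and 4382 normalized counts under ETH against 5647 and 5738 (log2 fold change −0.40, SE 0.10, adjusted p = 0.00119), and KRT7 had 10519 and 11133 under TAM against 14001 and 16348 (−0.48, SE 0.10, adjusted p = 6.59e-05). KRT8 gave 0.23 and −0.20, with adjusted p of 0.384 and 0.44. Under TAM, KRT17 was lost without Ctrli replicate 1 (adjusted p = 0.0645), TAZi replicate 1 (0.0796) or TAZi replicate 2 (0.827), and KRT7 without Ctrli replicate 2 (0.0427), TAZi replicate 1 (0.0958) or TAZi replicate 2 (0.0439). Under ETH, KRT18 was lost without any 1 of the 4 libraries (0.0504 to 0.365) and KRT6A without Ctrli replicate 1 (0.0291).

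STAT3 knockdown lowered KRT6A, KRT6B, KRT14 and KRT17 in TAM cells. Under TAM, 4 keratins were called lower and 0 higher in STAT3i, where 7.42% of all genes tested were called. The median log2 fold change of the 10 was −0.46 and that of all genes tested 0.02. JUNB was also lower in TAM STAT3i (−2.41, SE 0.16, adjusted p = 2.75e-47), where TAM JUNBi had −2.03 (SE 0.35), and in ETH STAT3i it gave −0.24 (adjusted p = 1). CDH1 (0.90) and CD14 (−1.23) were called among the markers. The part of JUNB and of these markers in the keratin results was not tested. KRT6B had 270.0 and 283.5 normalized counts in TAM STAT3i against 1230 and 1318 in TAM Ctrli (log2 fold change −2.18, SE 0.17, adjusted p = 4.75e-36), and its share of the KRT6A count returned to 1.2% and 1.24%. KRT6A had 22561 and 22842 (−1.21, SE 0.10, adjusted p = 3.7e-30). KRT14 had 4840 and 4992 (−1.08, SE 0.11, adjusted p = 5.34e-22), below both ETH Ctrli libraries. KRT17 had 32036 and 35128 (−0.47, SE 0.11, adjusted p = 3.24e-04), still far above ETH Ctrli. KRT16 had 579.2 and 1020, both below the control libraries but far apart (−0.46, SE 0.41, adjusted p = 0.584). KRT5, KRT7 and KRT8 gave 0.19 to 0.34 and KRT18 −0.34, none called. The activation share of keratin TPM was 12.4% and 11.1%, the lowest among the TAM groups.

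Under ETH, STAT3i called 0 of the 10 keratins with DESeq2, where 0.126% of all genes tested were called. At an unadjusted p under 0.05 there were 2 (KRT14 with log2 fold change −0.53 and KRT17 with −0.37), and edgeR called 0. STAT3 itself was lower by 1.88 on the log2 scale there, and by 2.66 under TAM. The fitted changes of all 10 keratins lay between −0.53 and 0.06. Without STAT3i replicate 2, KRT17 was called under ETH (−0.55, adjusted p = 4.62e-04), and without STAT3i replicate 1, KRT16 was called lower under TAM (−0.92, adjusted p = 0.00312). The KRT17 call under TAM was lost without Ctrli replicate 1 (0.0279), Ctrli replicate 2 (0.212) or STAT3i replicate 1 (0.0566).

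JUNB knockdown, which targets an AP-1 subunit, gave the lowest mean KRT14 level and the highest mean KRT8 level of ER-Src. Under TAM 1 keratin was called higher and 3 lower, where 6.71% of all genes tested were called, and under ETH 2 were called higher and 1 lower, where 2.76% were called. The median log2 fold change of the 9 keratins tested was −0.26 under TAM and −0.04 under ETH, against 0.02 over all genes tested in each. CDH1 rose in both (0.89 and 1.05), TP63 and FN1 fell under TAM (−1.31 and −0.49), and their part was not tested. KRT14 had 2194 and 2866 normalized counts in TAM JUNBi (log2 fold change −2.04, SE 0.13, adjusted p = 3.91e-49) and 1485 and 2589 in ETH JUNBi (−1.505, SE 0.28, adjusted p = 1.61e-05). KRT5 had 40615 and 48149 under TAM (−0.26, adjusted p = 0.11) and 50138 and 62797 under ETH (−0.10, adjusted p = 0.96), so KRT5 stood at 19.1 and 17.0 times KRT14 in TPM under TAM and at 34.1 and 27.8 times under ETH, the widest gap of the 10 groups. KRT8 rose to 2648 and 3169 under TAM (0.64, SE 0.13, adjusted p = 7.46e-05) and to 3245 and 5003 under ETH (1.14, SE 0.26, adjusted p = 0.00101), above every other group. Its partner KRT18 gave 0.07 (95% interval −0.15 to 0.29) and −0.13 (−0.57 to 0.30), and the ratio of KRT8 to KRT18 in TPM was 0.659 and 0.667 under ETH.

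Of the activation members, KRT6A and KRT6B fell in JUNBi under TAM, and none was called under ETH. Under TAM, KRT6A had 32801 and 39602 normalized counts (log2 fold change −0.53, SE 0.12, adjusted p = 1.47e-04) and KRT6B 723.0 and 869.6 (−0.66, SE 0.16, adjusted p = 0.00111), while KRT16 gave −0.52 (adjusted p = 0.0398). Under ETH, KRT16 gave 1.02 (adjusted p = 0.0345), KRT6A −0.04 (0.99) and KRT6B −1.06 (0.115), none of them called. KRT17 rose under ETH, to 20070 and 32760 (1.10, SE 0.26, adjusted p = 0.0015), and gave −0.18 under TAM (0.398). The ETH JUNBi pair was wide, and JUNB was not called there. Under ETH the KRT14, KRT17 and KRT8 calls were lost without Ctrli replicate 1 (adjusted p = 0.0611, 1 and 1) or replicate 2 (0.333, 0.555 and 0.318), and KRT7, with 15287 and 28679, was called higher without JUNBi replicate 1 (0.44, adjusted p = 0.0051) and lower without JUNBi replicate 2 (−0.45, 0.0027). Without JUNBi replicate 1, KRT16 was called under ETH (1.30, 3.88e-04). Under TAM the KRT6A, KRT6B and KRT8 calls were lost without either Ctrli library (adjusted p 0.0205 to 0.262), the first 2 also without JUNBi replicate 1 (0.0687 and 0.288), and KRT8 without JUNBi replicate 2 (0.0403). The STAT3i and JUNBi libraries of ER-Src had effective transcript lengths 49.0 bases below the full length, and Ctrli, YAPi and TAZi of about 49.5 bases below. This difference depends on the read or fragment length that RSEM used, and which of these it was is not given. The part of this in the results was not tested.

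Whether a knockdown acted differently under TAM and under ETH was asked with an interaction term over the 4 groups concerned, whose value is the log2 fold change under TAM minus that under ETH. For TAZi, 5 of the 10 keratins were called, all negative, where 0.539% of all genes tested were called. These were KRT14 (−1.45, SE 0.16, adjusted p = 1.15e-16), KRT17 (−1.28, SE 0.16, adjusted p = 1.42e-12), KRT16 (−1.07, SE 0.23, adjusted p = 8.72e-04), KRT6A (−0.75, SE 0.12, adjusted p = 4.42e-07) and KRT5 (−0.52, SE 0.10, adjusted p = 5.08e-04). For STAT3i, 2 were called, where 1.88% were called: KRT6B (−1.89, SE 0.29, adjusted p = 1.74e-08) and KRT6A (−0.999, SE 0.18, adjusted p = 6.74e-06). For YAPi the call was KRT16 (−1.20, SE 0.24, adjusted p = 3.32e-04), where 0.496% were called. For JUNBi it was KRT17 (−1.30, SE 0.31, adjusted p = 0.0092), where 0.26% were called, with KRT16 just outside the threshold (−1.57, adjusted p = 0.0102). All 9 called terms were negative. Over all genes 63 of 79 calls were negative for TAZi, 165 of 238 for STAT3i, 50 of 78 for YAPi and 34 of 45 for JUNBi. The 4 terms share the Ctrli libraries, so they are not independent of each other. By edgeR, KRT6B in STAT3i was the only one called (adjusted p = 0.00359). The values without single libraries are given with the closer look at these results. The targets themselves also differed between treatments. In TAM against ETH with Ctrli, STAT3 rose by 1.12 (SE 0.11) and JUNB by 2.51 (SE 0.17) on the log2 scale. In the STAT3i interaction, STAT3 had −0.80 (DESeq2 adjusted p = 0.00561) and JUNB −2.19 (adjusted p = 7.92e-08). In the JUNBi interaction JUNB was not called. The part of this in the keratin terms was not tested.

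**Figure D3:**
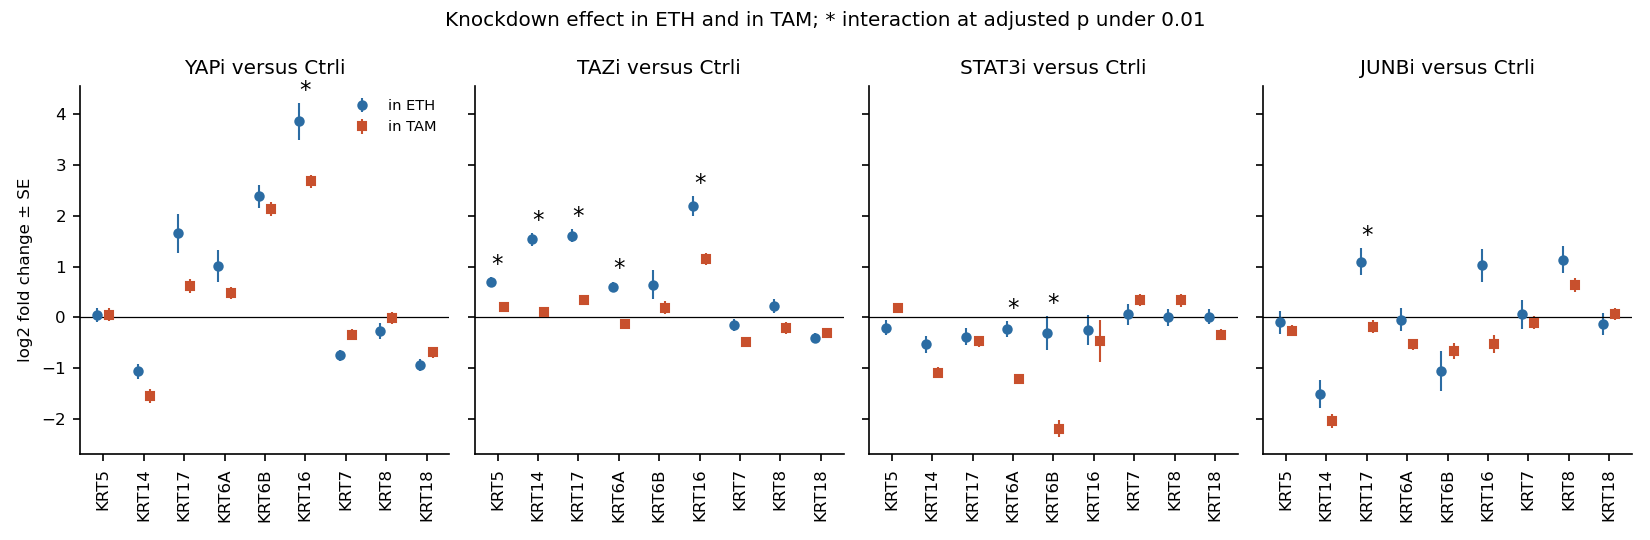
Fitted log2 fold change of each keratin against Ctrli (vertical axis, log2 units, error bars 1 SE) under ETH and under TAM, in a panel for each siRNA, for 9 keratins (KRT19 is not drawn), with an asterisk where the difference between treatments was called (adjusted p under 0.01). In TAZi the ETH values of KRT14, KRT16, KRT17, KRT6A and KRT5 lie above the TAM values, and in STAT3i the TAM values of KRT6A (−1.21) and KRT6B (−2.18) lie below the ETH values (−0.23 and −0.31).

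Seen gene by gene over the 10 ER-Src groups, KRT14 was the keratin most often called in the 8 knockdown comparisons, with 5 calls lower and 1 higher, tied with KRT17, which had 5 higher and 1 lower. KRT16 was called higher 4 times and never lower. KRT6A and KRT6B were each called higher in 2 and lower in 2. KRT18 was called lower 3 times and KRT7 lower 2 times, neither ever higher, and KRT8 was called higher 2 times. KRT5 was called 1 time and KRT19 never. The comparisons of a treatment share the same Ctrli libraries, so these calls are not independent of each other. The order of the groups differed between keratins. KRT6A was highest in TAM YAPi, then TAM Ctrli, TAM TAZi, TAM JUNBi, ETH YAPi, TAM STAT3i, ETH TAZi, ETH Ctrli, ETH JUNBi and ETH STAT3i, with overlaps between TAM JUNBi and ETH YAPi, ETH YAPi and TAM STAT3i, ETH Ctrli and ETH JUNBi, and ETH JUNBi and ETH STAT3i. KRT14 ran from ETH TAZi through TAM TAZi, TAM Ctrli, ETH Ctrli, TAM STAT3i, ETH STAT3i, TAM YAPi, ETH YAPi and TAM JUNBi to ETH JUNBi, and its lower groups overlapped from ETH STAT3i down. KRT7 overlapped between all neighbours but the last, with TAM TAZi at the bottom.

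Over the means of the 10 ER-Src groups, on a log2(TPM + 1) scale, KRT6A and KRT6B followed each other (Pearson r = 0.923), as did KRT6A and KRT17 (0.857), and both KRT6 genes ran against KRT7 (−0.888 and −0.930). KRT16 ran against KRT18 (−0.899). KRT6B and the type I keratin KRT16 had an r of 0.813. These correlations are over 10 groups that share control siRNA, line and library type, and are given as a description. KRT14 and KRT19 had an r of 0.964, although KRT19 never exceeded 1.42 TPM or 22 counts. The protein-coding genes with the pattern most like that of KRT6A, among 10400 with a mean of at least 1 TPM, were PLAUR, the urokinase receptor (r = 0.963), PLPP3 (0.960) and the chemokine gene CCL20 (0.948). For KRT16 they were FN1, fibronectin (0.949), SH3PXD2B (0.947) and MTSS1 (0.946). For KRT17 they included AMBRA1 (0.959) and the chemokine gene CXCL3 (0.920), and for KRT6B PCDH1 (0.967), MAN1A1 (0.953) and CARD6 (0.949). For KRT14 they were EFNA4 (0.910), ROBO3 (0.898) and FBXL19 (0.897). KRT5 was most like LAMTOR4 (0.949), ELOB (0.946) and HPSE (0.946). Of the simple members, KRT7 was most like FLII (0.982), TMEM19 (0.980) and ZNF74 (0.971), KRT8 like FAM210B (0.964), FAM200C (0.961) and CLK4 (0.955), and KRT18 like AASS (0.971), ADNP2 (0.969) and MYL6B (0.956).

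Of 44 further keratin genes, 9 were tested in TAM against ETH, and the rest had no adjusted p. Of those tested 2 were called higher and 3 lower, where 6.36% of all genes tested were called. The hair keratin KRT81 was more abundant than KRT7 in ETH Ctrli, at 1319 and 1250 TPM in ETH Ctrli and 341.4 and 380.5 in TAM Ctrli (log2 fold change −1.64). In TAM STAT3i it stood at 1284 and 1348 TPM (1.56 against TAM Ctrli, adjusted p = 3.77e-40), overlapping ETH Ctrli, and KRT15, a type I keratin of basal and stem-like epithelial cells, rose there too (2.34, SE 0.21, adjusted p = 5.58e-27). Of 10 other keratins tested in TAM STAT3i, 4 were called higher and 1 lower, where 7.42% of all genes tested were called. The 10 members had 4 lower calls there. KRT13, the type I keratin of mucosal suprabasal layers, was at 7.45 and 7.63 TPM in ETH JUNBi and 0.25 and 0.3 in ETH Ctrli (4.91, SE 0.55, adjusted p = 9.38e-17). KRT15 rose in ETH JUNBi as well (1.85, SE 0.32, adjusted p = 8.2e-07).

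Of 13 genes whose proteins tie keratin filaments to desmosomes and hemidesmosomes, 12 were tested in each ER-Src comparison named here except ETH STAT3i, which tested 13 and called 0 (0.126% of all genes). In YAPi, 6 were called higher and 1 lower under TAM, and 5 higher and 1 lower under ETH, where 10.5% and 10.9% of all genes were called. In TAZi, 1 was called higher under TAM and 5 under ETH, with none lower, beside 3.53% and 4.86% of all genes. Under TAM, STAT3i had 2 higher and 1 lower (7.42% of all genes) and JUNBi 1 higher and 1 lower (6.71%), and ETH JUNBi had 2 higher and 0 lower (2.76%). TAM against ETH in Ctrli had 2 higher and 3 lower (6.36%). Periplakin (PPL) rose by 1.75 (SE 0.16) in TAM YAPi, by 1.51 (SE 0.19) in TAM JUNBi and by 1.35 (SE 0.17) in TAM STAT3i. Desmoplakin (DSP) rose in ETH YAPi (0.98, SE 0.10), ETH TAZi (0.85, SE 0.09) and ETH JUNBi (0.96, SE 0.21). Plakoglobin (JUP) rose in YAPi under TAM (1.04, SE 0.15) and ETH (0.95, SE 0.16) and in ETH TAZi (0.92, SE 0.17). COL17A1, the hemidesmosomal collagen, rose in YAPi (0.70 under TAM and 0.87 under ETH) and fell in TAM JUNBi (−1.07, SE 0.12). Epiplakin (EPPK1) fell in TAM STAT3i (−1.25, SE 0.20), where the bullous pemphigoid antigen gene DST rose (1.18, SE 0.11). Among 9 keratin-binding proteins, SFN (14-3-3 sigma), an adaptor of KRT17, rose in TAM against ETH (0.49, SE 0.10) and fell in TAM STAT3i (−0.77, SE 0.14) and TAM JUNBi (−1.06, SE 0.15). Of 14 transcription factors known to act on keratin genes, 12 were tested. KLF5 rose in TAM against ETH (1.26, SE 0.16) and fell in TAM STAT3i (−0.91, SE 0.15), GRHL3 rose in YAPi (1.86, SE 0.38, under TAM and 2.17, SE 0.34, under ETH), and TP63, the master factor of the basal lineage, fell in TAM JUNBi (−1.31, SE 0.32). Among 13 other intermediate filament genes, the nuclear lamin gene LMNB1 fell in YAPi (−0.91, SE 0.17, under TAM and −0.68, SE 0.16, under ETH). VIM was at 195.0 and 224.0 TPM in TAM Ctrli and 226.7 and 252.9 in ETH Ctrli. The fit to counts gave 0.07 (SE 0.12, DESeq2 adjusted p = 0.936) for VIM, so it was not called.

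MDA-MB-231 cells held the simple members almost alone. In set 2 Ctrli the level of KRT7 was 643.2 and 877.7 TPM, of KRT18 634.9 and 745.5, of KRT8 623.5 and 695.6, and of KRT19 340.2 and 380.0. KRT7, KRT18 and KRT8 overlapped and KRT19 lay below them. In set 1 Ctrli the order was KRT19 (491.3 and 529.6 TPM), KRT8 (422.6 and 412.1), KRT18 (403.6 and 392.7) and KRT7 (280.2 and 264.6), without overlap, so that KRT19 led in one set of control libraries and came last in the other. KRT8 and KRT18, the filament pair of simple epithelia, were near equal here, with ratios of 0.982 and 0.933 in set 2 Ctrli and 1.05 in both set 1 controls, against 0.240 to 0.315 in the ER-Src Ctrli libraries. On the protein-coding TPM scale KRT19 was at 382.5 ± 29.99 (SD, n = 2) in set 2 Ctrli and 1.83 in ETH Ctrli, and KRT8 at 700.5 ± 54.4 and 174.1. KRT18 was at 733.0 in set 2 Ctrli, 421.4 in set 1 Ctrli and 585.3 in ETH Ctrli, and KRT7 at 807.7, 288.3 and 2339. KRT5, KRT6A and KRT6B had 0 counts in all 4 control libraries, where a count of 0 allows up to 3 counts, and KRT14, KRT16 and KRT17 had 0 to 6. Intervals and such limits cover counting error only.

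In set 1 the knockdowns were set against the set 1 controls, with the difference in library type noted above. KRT8, KRT18 and KRT19 were called lower in all 4 knockdowns and KRT7 in 2 of them. YAPi had 4 keratins lower and 0 higher, where 26.9% of all genes tested were called; TAZi had 3 lower and 0 higher, where 34.7% were called. YAPi_TAZi had 4 lower and 1 higher, where 41.4% were called; TEADi had 3 lower and 1 higher, where 30.1% were called. The keratin counts stand beside these large shares and controls of another library type, and nothing is read from them. KRT19 had 1111 and 1219 normalized counts in the controls, 313.7 and 315.9 in YAPi (log2 fold change −1.91, SE 0.13, adjusted p = 1.47e-44), 378.5 and 386.2 in TAZi (−1.64, SE 0.11), 515.9 and 519.3 in YAPi_TAZi (−1.21, SE 0.10) and 375.5 and 401.3 in TEADi (−1.62, SE 0.13). All 8 knockdown libraries lay below both controls. KRT18 had 965.2 and 976.6 in the controls and 430.0 to 770.8 in the knockdowns, lowest in TEADi (−1.19, SE 0.12, adjusted p = 4.54e-22). KRT8 had 1303 and 1304 in the controls and 623.3 to 966.2 in the knockdowns, again lowest in TEADi (−1.04, SE 0.11, adjusted p = 6.19e-21). KRT7 had 626.6 and 674.2 in the controls, 301.9 and 383.3 in YAPi_TAZi (−0.98, SE 0.13, adjusted p = 6.61e-14) and 431.3 and 534.5 in YAPi (−0.45, SE 0.15, adjusted p = 0.00923), and lay just below the controls in TAZi (−0.27, adjusted p = 0.122) and TEADi (−0.26, adjusted p = 0.146). On the protein-coding TPM scale KRT7 had 296.5 and 280.2 in the controls, 293.6 and 210.2 in YAPi, 329.1 and 265.2 in TEADi and 359.0 and 308.4 in TAZi, so that only YAPi_TAZi, with 208.4 and 161.6, lay below both controls. KRT18 in TAZi, with 453.9 and 384.0, overlapped its controls on that scale. With the controls of both sets as reference, the calls were 1 in YAPi, TAZi and YAPi_TAZi and 2 in TEADi. The KRT7, KRT8 and KRT18 calls in YAPi were lost without Ctrli replicate 1 (adjusted p = 0.31, 0.045 and 0.0172) or replicate 2 (0.168, 0.0458 and 0.0144), KRT7 also without YAPi replicate 2 (0.0871). In TAZi, KRT18 was lost without Ctrli replicate 1 (0.0913) or 2 (0.0714) and KRT8 without Ctrli replicate 1 (0.0107), and KRT7 was called without TAZi replicate 1 (6.97e-05) and, in TEADi, without TEADi replicate 1 (5.26e-04).

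Set against the other 3 knockdowns of set 1, which share their library type, in a fit that blocked on replicate number, most of these differences were not seen. DESeq2 called 0 of the 10 keratins in YAPi (0.233% of all genes tested were called, 1 keratin had an unadjusted p under 0.05), 0 in TAZi (0.444% called, 1 keratin) and 0 in TEADi (2.26% called, 2 keratins), and edgeR called 0 in each. In YAPi_TAZi 1 was called lower, where 1.39% were called: KRT7, with log2 fold change −0.64 (SE 0.16, adjusted p = 0.00694), a call that was lost without any 1 of the 8 libraries (adjusted p 0.0249 to 0.992) and with edgeR. KRT8 in TEADi gave −0.45 (95% interval −0.72 to −0.18, adjusted p = 0.0326). KRT19 gave −0.45 (−0.87 to −0.03) in YAPi, −0.08 (−0.59 to 0.42) in TAZi, 0.51 (0.17 to 0.86) in YAPi_TAZi and −0.06 (−0.56 to 0.44) in TEADi, none called. This comparison has no untreated reference, so a change shared by all 4 knockdowns cannot appear in it.

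The basal and activation keratins of set 1 followed the replicate number rather than the siRNA. The replicate 1 libraries of the 4 knockdowns held 30 to 38 counts of KRT5, 9 to 20 of KRT6A and 13 to 26 of KRT17, and the replicate 2 libraries 0 of KRT5 and KRT6A and at most 2 of KRT17. Both set 1 controls held 0 of KRT5 and KRT6A and 4 of KRT17, at a greater depth. The same replicate 1 libraries had effective lengths 48 bases below the full length against about 74.6 in replicate 2, and ESR1, part of the ER-Src transgene, at 0.49 to 2.57 TPM against at most 0.10. The source of these reads was not tested. KRT17 was called higher in YAPi_TAZi (26 and 2 counts against 4 and 4) and in TEADi (15 and 1) and had no adjusted p once replicate 1 of the knockdown was left out. In TEADi its call was also lost without Ctrli replicate 1 (adjusted p = 0.0955) or 2 (0.0952). Without replicate 2 of the knockdown, KRT5, KRT6A and KRT17 were called in YAPi (adjusted p = 7.77e-09, 5.91e-06 and 9.49e-05), TAZi (5.38e-10, 1.97e-04 and 6.24e-04), and KRT5 and KRT6A in YAPi_TAZi (4.13e-11 and 4.98e-08) and TEADi (8.21e-10 and 1.1e-05), so these calls rest on the replicate 1 libraries.

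**Figure D4:**
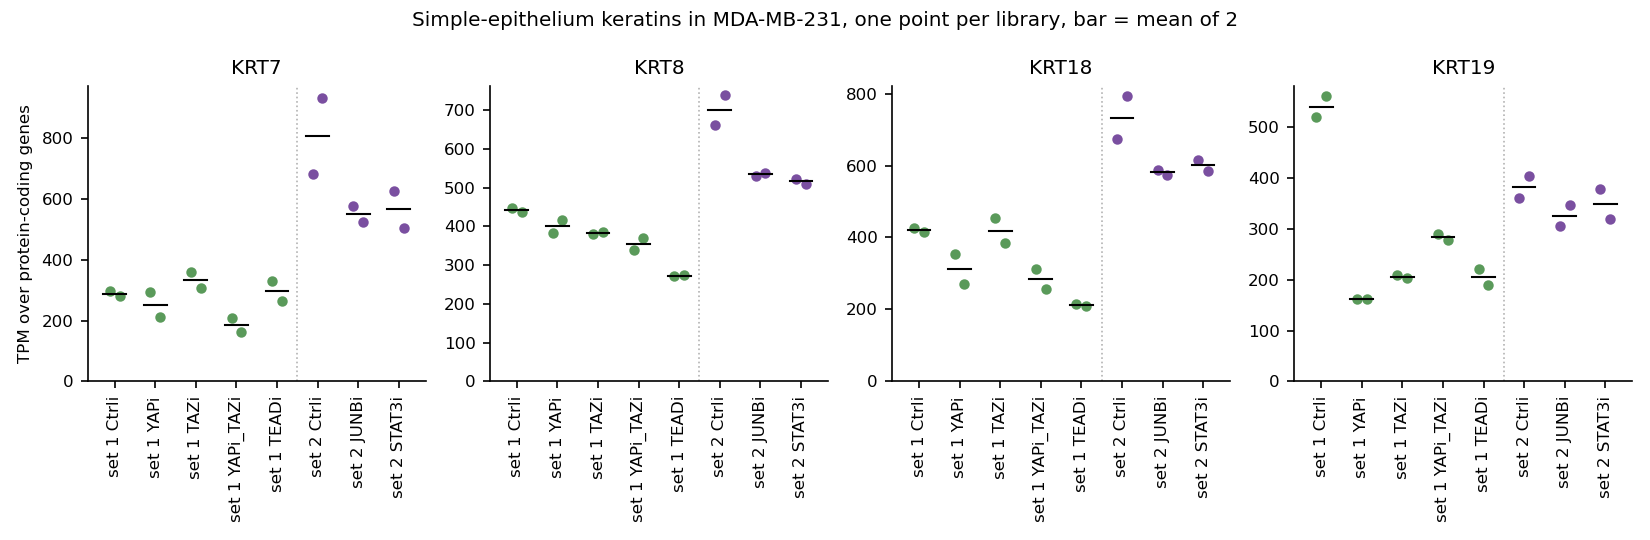
Level of each simple member in MDA-MB-231 as TPM rescaled over protein-coding genes (linear axes from 0), 1 point per library and a bar at the mean of each pair, with set 1 left and set 2 right of the dotted line. KRT19 has means of 540.3 in the set 1 controls and 162.6 to 283.8 in the set 1 knockdowns, and KRT7, KRT8 and KRT18 have their highest library in set 2 Ctrli.

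In set 2, JUNBi had 2 keratins called lower, where 11.1% of 3037 genes tested were called, and STAT3i had 0, where 0.137% were called. At an unadjusted p under 0.05 there were 4 in JUNBi and 2 in STAT3i, and edgeR called 0 in each. KRT8 had 10383 and 13769 normalized counts in Ctrli, 7006 and 8058 in JUNBi (log2 fold change −0.68, SE 0.19, adjusted p = 0.0041) and 7616 and 8195 in STAT3i (−0.61, SE 0.17, adjusted p = 0.121). KRT7 had 6641 and 8817 in Ctrli, 4802 and 5294 in JUNBi (−0.61, SE 0.19, adjusted p = 0.00956) and 4769 and 5835 in STAT3i (−0.54, SE 0.19, adjusted p = 0.328). KRT18 and KRT19 gave −0.42 and −0.54 in JUNBi and −0.29 and −0.30 in STAT3i. In JUNBi 312 of the 336 genes called were lower, and the median log2 fold change of all genes tested was −0.14. Both knockdowns share the same controls, which were far apart. The KRT8 and KRT7 calls in JUNBi were lost without Ctrli replicate 4 (adjusted p = 0.311 and 0.459), JUNBi replicate 1 (0.317 and 0.525) or JUNBi replicate 2 (1 and 1). Without Ctrli replicate 3, KRT19 was called in JUNBi (−0.73, adjusted p = 0.00222) and KRT7 and KRT8 in STAT3i (−0.72, 4.33e-04, and −0.79, 3.05e-06). The basal and activation members had at most 10 counts in any set 2 library.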

How the data were processed

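RNA of 36 libraries was sequenced after siRNA knockdown. The authors aligned reads with STAR to the GENCODE transcriptome (hg38) and quantified genes with RSEM. The tables they deposited hold expected counts, which are estimated reads per gene without normalization, and TPM, which RSEM scaled to effective length and a fixed library total of 1000000. Aligner versions are not given in the sources used here. Groups came from the sample titles. Symbols and coordinates came from GENCODE 44 (GRCh38), which matched 93.1% of 60725 Ensembl identifiers. Numeric, spike-in and other identifiers, at most 0.109% of counts, were left out.

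Expected counts were rounded and compared with DESeq2 1.42.0 (R 4.3.3, Wald test, default size factors, calls at adjusted p under 0.01), as in the methods of the study. Benjamini-Hochberg adjustment ran over the genes that passed the DESeq2 filter on the mean count, which differed between comparisons. The genes tested ran from 3037 in set 2 JUNBi to 28581 in ETH STAT3i. Each share of genes called is of the genes tested in its comparison. Where edgeR (4.0.16, quasi-likelihood test) is not named, an adjusted p comes from DESeq2. Log2 fold changes are unshrunken, with SE, and intervals are 95% Wald intervals. With 2 libraries per group a permutation test cannot give a small p. Scripts were tested on simulated data. The keratins and gene lists were chosen with earlier results of these data known. All 10 keratins are named throughout. From each other list up to 4 genes per comparison were eligible, by largest change among called genes whose normalized count averaged 100 or more, and for each keratin the 3 most correlated genes. For KRT17, 1 of these is not reported here.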

Additional observations from a re-analysis of the deposited data

Results flagged for a closer look

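For 9 keratin effects the difference between TAM and ETH passed its own test, the interaction term of knockdown and treatment fitted by DESeq2, given as the log2 fold change under TAM minus that under ETH. In TAZi these were KRT14 (−1.448), KRT17 (−1.278), KRT16 (−1.071), KRT6A (−0.754) and KRT5 (−0.516). The KRT14, KRT17 and KRT6A differences were called without any 1 of the 8 libraries. The KRT5 difference was lost without ETH Ctrli replicate 1 (−0.446, adjusted p = 0.0119) or TAM TAZi replicate 2 (−0.503, adjusted p = 0.0259). The KRT16 difference was lost without ETH Ctrli replicate 1 (−0.847, adjusted p = 0.0965), TAM Ctrli replicate 2, ETH TAZi replicate 2 or either TAM TAZi library (adjusted p 0.0532 to 0.0856).

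In STAT3i the differences were KRT6B (−1.893) and KRT6A (−0.999), and both were called without any 1 of the 8 libraries. In YAPi the difference was KRT16 (−1.195), lost without ETH Ctrli replicate 1 (−0.966), ETH YAPi replicate 2 (−0.869), either TAM Ctrli library or either TAM YAPi library (adjusted p 0.0327 to 0.979). KRT16 rose in YAPi in both treatments, so this term compares a smaller rise with a larger one. In JUNBi the difference was KRT17 (−1.300, adjusted p = 0.0092), lost without any Ctrli library or either TAM JUNBi library (adjusted p 0.0163 to 0.384). Without ETH JUNBi replicate 1, KRT16 (−1.848), KRT14 (−0.905), KRT6A (−0.697) and KRT8 (−0.803) were called in JUNBi, and without ETH YAPi replicate 1, KRT17 (−1.396) and KRT6A (−0.837) in YAPi. By edgeR all of the 9 but KRT6B in STAT3i missed the threshold, with adjusted p between 0.0213 and 0.321.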

How the results depend on the processing

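Of 66 keratin calls, 26 were kept under every alternative tried, among them KRT6A, KRT6B, KRT16 and KRT17 in TAM against ETH, KRT14 in YAPi and JUNBi under TAM, and KRT19 in set 1 YAPi, TAZi and TEADi. Every alternative for the set 1 knockdowns against Ctrli kept controls of another library type. The set 1 calls that were kept are therefore not separated from library type. Values below are numbers of the 10 keratins called. With edgeR the number was 1 in place of 3 for TAZi under TAM, 3 in place of 6 for TAZi under ETH, 0 in place of 3 for JUNBi under ETH, 1 in place of 2 for the STAT3i interaction, 0 for the YAPi, TAZi and JUNBi interactions, 0 for YAPi_TAZi against the other knockdowns and 0 for set 2 JUNBi. Smaller changes with edgeR were 5 in place of 6 for TAM against ETH, 4 in place of 6 for YAPi, 3 in place of 4 for STAT3i and 3 in place of 4 for JUNBi under TAM, 7 in place of 6 for YAPi under ETH, and in set 1 3 in place of 4 for YAPi, 2 in place of 3 for TAZi, 4 in place of 5 for YAPi_TAZi and 3 in place of 4 for TEADi. With effective length offsets it was 1 for TAZi under TAM, 2 for JUNBi under TAM, 2 for set 1 YAPi, 0 for YAPi_TAZi against the other knockdowns and 0 for set 2 JUNBi. With TMM size factors it was 0 for the JUNBi interaction and 1 for set 2 JUNBi. With a mean count of at least 10 it was 2 for the JUNBi interaction and 0 for both YAPi_TAZi against the other knockdowns and set 2 JUNBi. With the controls of both sets it was 1 for set 1 YAPi, TAZi and YAPi_TAZi and 2 for TEADi. The ratio of summed keratins in ETH Ctrli to set 2 Ctrli was 1.37 in deposited TPM and 5.02 in protein-coding TPM. The cause of these changes was not tested.

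With 1 library left out, the lone library of a group is assumed to vary like the other group. The number called then ran from 1 to 2 for TAZi and 1 to 3 for JUNBi under TAM, 3 to 4 for STAT3i and 4 to 6 for YAPi under TAM, and 4 to 6 for TAM against ETH. Under ETH it ran from 5 to 7 for YAPi, 4 to 5 for TAZi, 0 to 1 for STAT3i and 0 to 5 for JUNBi. For the interactions it ran from 0 to 3 for YAPi, 3 to 5 for TAZi and 0 to 5 for JUNBi, and was 2 throughout for STAT3i. In set 1 it ran from 1 to 6 for YAPi and TAZi, 4 to 7 for YAPi_TAZi and 3 to 6 for TEADi, and was 0 for YAPi_TAZi against the other knockdowns. In set 2 it ran from 0 to 3 for JUNBi and 0 to 2 for STAT3i. KRT7 in JUNBi under ETH changed sign, from 0.06 to −0.449 on the log2 scale, without ETH JUNBi replicate 2, and was 0.443 without ETH JUNBi replicate 1.

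Replicate numbers were shared between groups. Same-numbered libraries of a knockdown and its Ctrli had correlated deviations under ETH (0.165 to 0.437) and not under TAM (−0.0554 to 0.0576), and over all groups of the interactions the range was −0.187 to 0.584. With 2 libraries per group this does not settle whether the numbers pair the samples. In a fit with a replicate block, the keratins called were 2 for the YAPi and for the JUNBi interaction in place of 1, 5 for YAPi under TAM, 2 for TAZi under TAM, 7 for YAPi and 4 for JUNBi under ETH. The block added KRT6A in YAPi (adjusted p = 0.00688) and KRT16 in JUNBi (0.00865) under ETH, and KRT17, KRT14 and KRT16 in the YAPi, STAT3i and JUNBi interactions. It removed KRT6A in YAPi (0.0144) and KRT17 in TAZi (0.0237) under TAM, and in set 1 KRT7 in YAPi (0.0342) and KRT17 in TEADi (0.0943). The set 1 knockdowns did deviate together (0.678 to 0.728), and without the block YAPi_TAZi against the other knockdowns had 0 calls in place of 1. No paired analysis was possible for set 2 because its controls carry replicate numbers 3 and 4. Depth limits KRT19 in ER-Src, with 0 to 22 counts.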

Other observations

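Keratin pseudogenes, summed over 149 annotated loci, held 1921 and 1978 expected counts in ETH Ctrli, at total counts of 11942413 and 10848740, and 590.1 and 419.6 in TAM Ctrli, at totals of 10275885 and 6419720. The sum was 2760 and 2158 in TAM STAT3i, at totals of 16544192 and 13756191. KRT8 and KRT18 were not called between TAM and ETH in Ctrli. The difference in the pseudogene sum was not tested.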
